A study of Homo sapiens with 6 samples.

Results

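C1QTNF6, PPIC and POGLUT2 are 3 human genes whose proteins enter the secretory pathway. They were chosen from 17687 genes because earlier results of these data placed them among the genes that lay furthest below the other samples in lung cancer cells given a synthetic miR-29a-3p. Each is read by 1 probe set of the array, so 3 of 21448 probe sets are described. The cells were NCI-H2023, an established human line of lung adenocarcinoma, and 6 RNA samples were taken in 3 groups of 2, lettered A and B. One group received a mimic of miR-29a-3p, one a mimic of miR-223-3p and one a control RNA, which the sample titles call a mimic control and the protocol a negative control siRNA. All were reverse transfected with a lipid reagent at 0.5 nM, the medium was renewed after 24 h, and the sources used here do not give a time of harvest. Nothing says that A and B were separate cultures, so p-values here reflect only how far these samples spread, in part perhaps for technical reasons. All samples share 1 cell line, and the amount of mimic taken up was not measured here.

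A mimic is a short double-stranded RNA that loads the cell's silencing complex with the sequence of a natural microRNA. The complex then pairs with messenger RNAs, mainly through the seed near the 5′ end of the microRNA, and lowers their stability and translation. The miR-29 family is best known for acting on collagens and other genes of the extracellular matrix, and miR-223 for its abundance in myeloid cells. C1QTNF6, also called CTRP6, is a secreted protein with a collagen-like stretch and a globular C1q domain. PPIC is cyclophilin C, a prolyl isomerase that helps proteins fold and binds cyclosporin A. POGLUT2, formerly KDELC1, is an enzyme of the endoplasmic reticulum (ER) that adds glucose to EGF-like repeats, the small folded units of Notch receptors and fibrillins.

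The mature sequences are shown because the seeds of miR-29a-3p and miR-223-3p, in capitals (bases 2 to 8), differ. Bases after the seed differ as well. The sequences are those of RefSeq, GRCh38.p14, and the letters of the commercial mimics were not used here.
hsa-miR-29a-3p: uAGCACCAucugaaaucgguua
hsa-miR-29b-3p: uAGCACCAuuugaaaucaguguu
hsa-miR-29c-3p: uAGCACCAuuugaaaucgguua
hsa-miR-223-3p: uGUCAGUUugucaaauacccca
The seed of miR-29a-3p was held by 3 of the 2370 mature names in the table, the 3 members of its family printed here. The seed of miR-223-3p was held by 1 name, its own. Target sites in the 3 transcripts were not analysed here.

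C1QTNF6 (gene ID 114904) spans 37180166 to 37199423 of chromosome 22 in GRCh38. Its deposited signal, on a log2 scale, was 10.3 and 10.18 in control samples A and B, 8.21 and 8.27 under miR-29a-3p, and 10.59 and 10.51 under miR-223-3p. The miR-29a-3p samples stood apart from the other 4 by at least 1.91 log2 units, while samples of one group differed by 0.06 to 0.12. The group means were 10.24 ± 0.0849 in control, 8.24 ± 0.0424 for miR-29a-3p and 10.55 ± 0.0566 for miR-223-3p (log2, SD, n = 2 each). The mean with miR-29a-3p was thus 4.0-fold below control and 4.96-fold below miR-223-3p. Its difference from control was the lowest of the 17687 genes, and its residual SD of 0.0638 was smaller than that of all but 4.44% of genes.

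PPIC (gene ID 5480) spans 123023250 to 123036725 of chromosome 5. Its signal was 10.28 and 10.14 in control, 9.03 and 8.59 after the miR-29a-3p mimic and 10.54 and 10.46 after the miR-223-3p mimic (log2, samples A and B). Both miR-29a-3p samples were below all others, by at least 1.11, but they differed from each other by 0.44, more than samples of the other groups did. The mean with miR-29a-3p, 8.81 ± 0.311, was 2.64-fold below the control mean of 10.21 ± 0.099 and 3.23-fold below the miR-223-3p mean of 10.5 ± 0.0566 (log2, SD, n = 2 each). The difference from control, -1.40, was -1.62 without sample A of miR-29a-3p and -1.18 without sample B. It was the 12th lowest of all genes.

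POGLUT2 (gene ID 79070) spans 102784281 to 102798976 of chromosome 13. Its signal was 9.34 and 8.91 in control, 8.21 and 8.11 after the miR-29a-3p mimic and 9.56 and 9.99 after the miR-223-3p mimic (log2, samples A and B). The miR-29a-3p samples were again lowest, but the gap to the nearer control sample, 0.7, was the smallest of the 3 genes, and the control samples themselves were 0.43 apart. Group means came to 9.125 ± 0.304 in control, 8.16 ± 0.0707 for miR-29a-3p and 9.775 ± 0.304 for miR-223-3p (log2, SD, n = 2 each). POGLUT2 was 1.95-fold below control and 3.06-fold below miR-223-3p with miR-29a-3p. Of that second difference, 40.2% lay between control and miR-223-3p, against 13.4% for C1QTNF6 and 17.2% for PPIC. Its difference from control ranked 68th from the lowest.

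**Figure D1:**
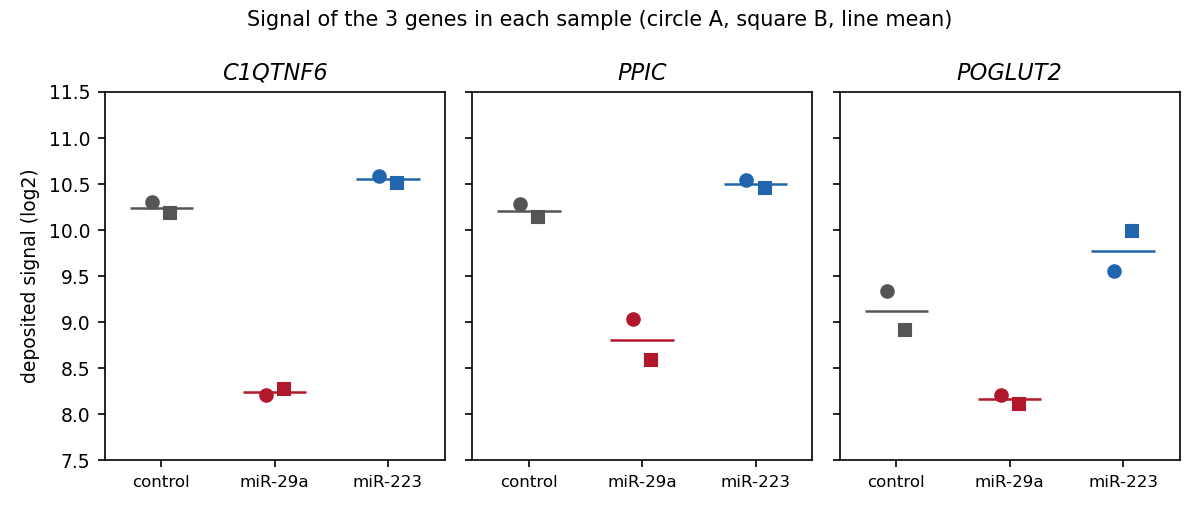
Deposited signal (log2, vertical axis) of C1QTNF6, PPIC and POGLUT2 in control, miR-29a-3p and miR-223-3p samples, with sample A as a circle, sample B as a square and the group mean as a line. For each gene both miR-29a-3p samples lie below the other 4, with the widest gap for C1QTNF6 (1.91) and the narrowest for POGLUT2 (0.7).

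These values chose the genes, so they are a description and carry no test. For all 3 genes the miR-29a-3p samples did not overlap with control from below, a pattern that 18.8% of all genes showed. Both miR-29a-3p samples lay below the other 4 in 9.3% of all genes. Leaving out 1 sample at a time, the difference from control ran from -2.06 to -1.94 for C1QTNF6, from -1.62 to -1.18 for PPIC and from -1.18 to -0.75 for POGLUT2. In bulk RNA, fewer cells that express a gene and less of its RNA per cell cannot be told apart.

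The 3 genes lay slightly higher with miR-223-3p than in control. The log2 difference was 0.31 with a standard error of 0.173 for C1QTNF6, 0.29 with 0.203 for PPIC and 0.65 with 0.225 for POGLUT2. For each gene both miR-223-3p samples were above both control samples, by at least 0.21, 0.18 and 0.22 in that order, which 18.7% of all genes showed. None passed the moderated limma test, with adjusted p of 0.74, 0.813 and 0.561 over all genes, and with a prior that follows the signal level (the intensity trend) they were 0.694, 0.754 and 0.281. The 95% intervals of the log2 difference were -0.0838 to 0.704 for C1QTNF6, -0.173 to 0.753 for PPIC and 0.137 to 1.16 for POGLUT2, before any adjustment over genes. The limma test with a constant prior called 0 of 17687 genes here (0.0% of all genes), where 7.59% had an unadjusted p under 0.05, POGLUT2 among them at 0.0188. The genes had also been picked on the difference between the mimics, which shares the miR-223-3p samples and favours high values there. Being picked as low against control favours high control values, which pushes the other way. The p-values and intervals of this comparison are thus not free of the choice. The order miR-29a-3p, control, miR-223-3p with no overlap was seen in 354 genes, 2.0% of all genes. These are among the 1645 genes with both miR-29a-3p samples below the other 4. The choice of the 3 genes favoured that part of the order, so the 2.0% is no measure of how rare it was.

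The relatives of the 3 genes were read beside them. The 3 were chosen for low values with miR-29a-3p, so their place below most relatives follows from the choice. The list of C1q and tumor necrosis factor related proteins had 9 measured genes beside C1QTNF6, and 4 lay below control and 5 above with miR-29a-3p, with a median difference of 0.065 (log2) against 0.00 for all genes. None of the 9 passed limma, with the constant prior (0.0113% of all genes called) or the intensity trend, and 1 had an unadjusted p under 0.05, C1QTNF7, at -0.44 (4.67% of all genes had such a p and were lower, and 4.19% were higher). C1QTNF1, a secreted relative, differed by -0.34, with control samples that had an SD of 0.537. Erythroferrone (ERFE), the hormone by which red cell precursors lower hepcidin, differed by -0.44 (adjusted p = 0.655 with the intensity trend in limma). With miR-223-3p, 6 of the 9 lay above control, and none had an unadjusted p under 0.05 or passed limma in either fit. Between the mimics 5 lay below with miR-29a-3p and 3 above, from -0.70 for C1QTNF1 to 0.47 for C1QTNF8, and none passed in either fit.

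Of the other 16 cyclophilins, 5 lay below control and 11 above with miR-29a-3p, with differences from -0.345 to 0.28 and a median of 0.0875. None passed limma in either fit, and none had an unadjusted p under 0.05. PPIB, cyclophilin B, the ER isomerase that works on collagen, measured 16.17 in both control samples, 15.83 and 16.05 after the miR-29a-3p mimic and 16.01 and 15.88 after the miR-223-3p mimic (log2). PPIB was lower by similar amounts with either mimic, at -0.23 and -0.225, and neither passed. The cytosolic cyclophilin A, PPIA, differed by 0.055 with miR-29a-3p (adjusted p = 0.897 with the intensity trend in limma). PPID, a partner of HSP90, had the highest difference of the family, 0.28, and did not pass. With miR-223-3p, 7 cyclophilins lay below control and 9 above, and none passed in either fit or at an unadjusted p under 0.05.

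POGLUT2 belongs to the enzymes that build sugars on EGF repeats. The 10 other measured genes of this group split evenly with miR-29a-3p, 5 below and 5 above control, with a median of 0.03. POGLUT1, which glucosylates Notch, measured 7.81 and 7.58 in control, 8.0 and 7.73 after the miR-29a-3p mimic and 7.3 and 7.18 after the miR-223-3p mimic (log2). It was thus lowest with miR-223-3p, at -0.455 from control (adjusted p = 0.651 with the intensity trend in limma). POGLUT3, the closest relative of POGLUT2 in function, measured 10.71 and 10.76 in control, 11.2 and 11.15 after the miR-29a-3p mimic and 11.03 and 10.68 after the miR-223-3p mimic. Its mean with miR-29a-3p was above that of control, the opposite side from POGLUT2. The difference was 0.44 with an unadjusted p of 0.0466, and it did not pass (adjusted p = 0.285 with the intensity trend). GXYLT1, which adds the xylose that follows the glucose, was higher with both mimics, by 0.645 for miR-29a-3p and 0.79 for miR-223-3p. With miR-223-3p it was called by the intensity trend, at an adjusted p of 0.0355, in a fit that called 0.181% of all genes higher. That call was lost when any 1 of the 4 samples was left out, with adjusted p from 0.194 to 0.236. No gene of this group passed limma with the constant prior in either comparison with control, where 2 had an unadjusted p under 0.05 in each. Over all genes 7.59% had such a p with miR-223-3p, and with miR-29a-3p 4.67% had one and were lower and 4.19% higher. Between the mimics 5 of the 10 lay below with miR-29a-3p and 5 above, from -0.87 for XXYLT1 to 0.625 for POGLUT1. None passed limma there in either fit.

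**Figure D2:**
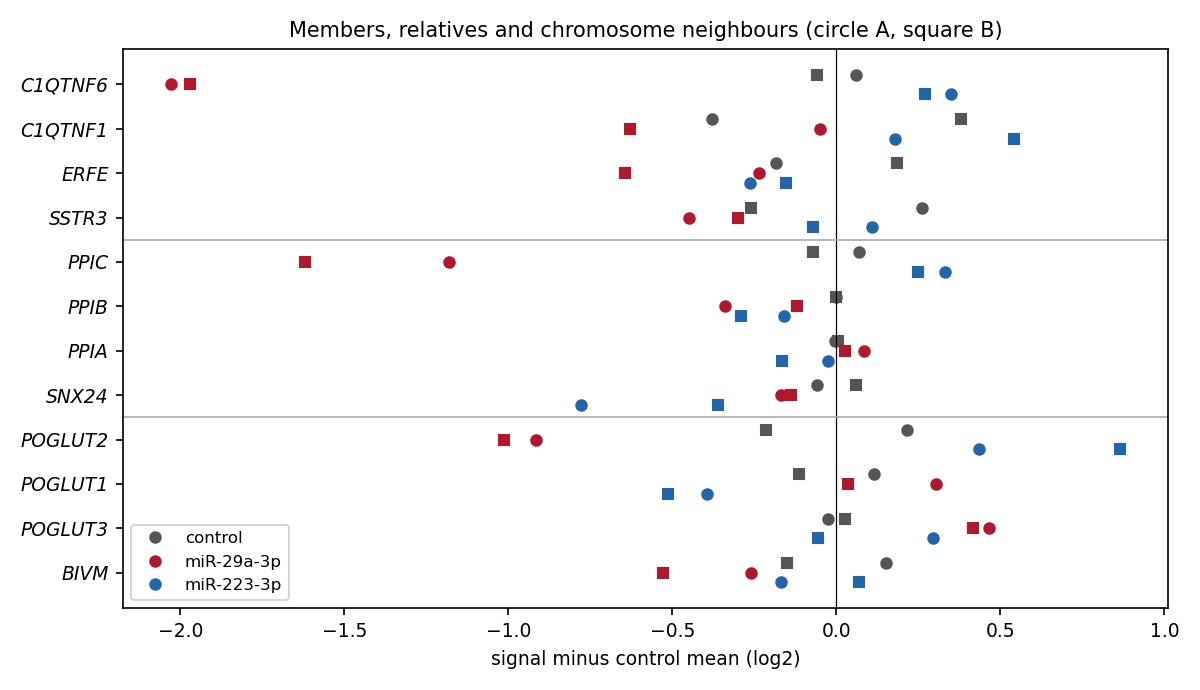
Signal minus the control mean (log2, horizontal axis) of each gene with relatives and a chromosome neighbour, with sample A as a circle, sample B as a square and groups by colour. C1QTNF6, PPIC and POGLUT2 have both miR-29a-3p samples below -0.9, while PPIB, PPIA, POGLUT1, POGLUT3, SNX24, SSTR3 and BIVM lie nearer to 0.

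Genes beside the 3 on their chromosomes were also read. The nearest measured genes of C1QTNF6 are IL2RB, an interleukin-2 receptor chain, and SSTR3, a somatostatin receptor, which differed by 0.155 and -0.375 with miR-29a-3p. SNX24, a sorting nexin whose span overlaps PPIC, differed by -0.155, and the next genes outward, SNX2 and PRDM6, by -0.11 and -0.485. TEX30, beside POGLUT2, differed by -0.2. With miR-223-3p SNX24 differed by -0.57, against 0.29 for PPIC, at an unadjusted limma p of 0.0196 (7.59% of all genes were under 0.05). The other neighbours named so far differed by -0.105 to 0.22. None of these passed limma in either fit. RefSeq also places an antisense RNA over PPIC and one over C1QTNF6, and whether these probe sets read 1 strand is not stated in the labels.

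POGLUT2 and BIVM start 142 bases apart on opposite strands. BIVM measured 8.71 and 8.41 in control, 8.3 and 8.03 after the miR-29a-3p mimic and 8.39 and 8.63 after the miR-223-3p mimic (log2). Its miR-29a-3p samples were below both control samples, as in 18.8% of all genes. The mean difference was -0.395 (adjusted p = 0.599 with the intensity trend in limma), against -0.965 for POGLUT2. The sequences before the 3 starts are shown because the genes were low together and because POGLUT2 shares its window with a neighbour. They are 250 bases for C1QTNF6 (chr22:37199424-37199673) and PPIC (chr5:123036726-123036975), and the 142 bases between POGLUT2 and BIVM (chr13:102798977-102799118), all read on the minus strand from RefSeq, GRCh38.p14. Capitals mark matches to the motifs searched.
C1QTNF6: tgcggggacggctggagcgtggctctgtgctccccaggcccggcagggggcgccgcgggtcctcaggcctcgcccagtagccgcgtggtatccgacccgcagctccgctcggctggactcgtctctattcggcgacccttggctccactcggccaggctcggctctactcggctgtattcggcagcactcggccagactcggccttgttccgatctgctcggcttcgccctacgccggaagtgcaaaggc
PPIC: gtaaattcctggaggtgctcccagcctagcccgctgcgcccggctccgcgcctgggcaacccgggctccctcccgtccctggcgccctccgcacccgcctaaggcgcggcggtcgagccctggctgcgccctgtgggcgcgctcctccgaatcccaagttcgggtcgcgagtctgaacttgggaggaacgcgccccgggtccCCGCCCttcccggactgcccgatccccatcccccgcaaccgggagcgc
POGLUT2: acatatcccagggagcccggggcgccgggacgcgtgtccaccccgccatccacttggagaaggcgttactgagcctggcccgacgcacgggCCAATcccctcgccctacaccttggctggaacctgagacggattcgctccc
The motifs were searched on both strands of the 250 bases. The PPIC window held 1 GC box (GGGCGG, here on the opposite strand), a motif of 42.3% of 27305 such windows, and the POGLUT2 window 1 CCAAT box (CCAAT), found in 33.0%. None of the 3 held the ER stress element, which is a CCAAT box followed by CCACG after any 9 bases and was found in 0.0806% of windows. None held the E-box CACGTG (6.49% of windows), the TATA box TATAAA (11.1%) or the cyclic AMP response core TGACGT (7.42%). Over all 250 bases the windows were 69.6%, 74.0% and 60.8% G and C for C1QTNF6, PPIC and POGLUT2, against a median of 58.0%. Their ratios of observed to expected CpG were 0.928, 0.905 and 0.91, against a median of 0.556. For POGLUT2 the 250 bases run past the 142 printed and into BIVM. A match describes letters in the window only.

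The proteins that POGLUT2 is known to modify, fibrillins and latent TGF-beta binding proteins, were read together with the 4 Notch receptors. Of these 11 genes, 5 lay below control and 6 above with miR-29a-3p, with a median of 0.005. None passed limma with the constant prior, and 2 had an unadjusted p under 0.05, FBN1 and LTBP1, both lower, as were 4.67% of all genes. Fibrillin-1 (FBN1), the backbone of microfibrils, measured 9.15 and 8.68 in control, 7.73 and 8.08 after the miR-29a-3p mimic and 8.8 and 8.64 after the miR-223-3p mimic (log2). It was 2.01-fold lower with miR-29a-3p than in control and was called by the intensity trend (adjusted p = 0.0327), a fit that called 0.695% of all genes lower. The call was lost without sample A of control or sample A or B of miR-29a-3p, with adjusted p up to 0.373, and kept without sample B of control at 0.0417. LTBP1, which tethers latent TGF-beta to the matrix, differed by -0.57 from control and -0.75 from miR-223-3p. The second of these was called by the intensity trend at an adjusted p of 0.0109, where 0.916% of all genes were called lower. It was not called when any 1 of the 4 samples was left out, at 0.0602 to 0.108. NOTCH1, NOTCH2 and NOTCH3 differed from control by -0.11, 0.19 and 0.035 with miR-29a-3p, with adjusted p from 0.743 to 0.97 in the same fit. With miR-223-3p no gene of this group passed in either fit. FBN3, at 0.635, had an unadjusted p under 0.05, as did 7.59% of all genes.

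Collagen folding in the ER is the step in which cyclophilins and other chaperones handle procollagen. With miR-29a-3p, 16 of 21 measured genes of this step lay below control and 5 above, with a median of -0.105. Over all 17687 genes 8753 lay below and 8814 above, with a median of 0.00. The constant prior called none, with 4 lower and 1 higher at an unadjusted p under 0.05 (4.67% and 4.19% of all genes). The intensity trend called 3 lower and 1 higher, where it called 0.695% and 0.334% of all genes. The 3 called lower were FKBP14, an ER prolyl isomerase of another class (-0.715, adjusted p = 0.0299), COLGALT1, which adds galactose to hydroxylysine (-0.675, 0.0243), and P3H1, a prolyl 3-hydroxylase that works in a complex with PPIB (-0.605, 0.0467). The gene called higher was PLOD2, a lysyl hydroxylase (0.545, 0.0213). With 1 sample left out the counts were 0 lower and 0 higher without sample A of control or sample A or B of miR-29a-3p, and 1 and 1 without sample B of control.

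COLGALT1 measured 12.28 and 12.48 in control, 11.59 and 11.82 after the miR-29a-3p mimic and 12.37 and 12.56 after the miR-223-3p mimic (log2). P3H1 measured 11.63 and 11.75, 11.02 and 11.15, and 11.76 and 11.68, listed likewise. Both had miR-29a-3p samples below all others, as in the 9.3% of genes given above. P3H4, a partner of the lysyl hydroxylases, had the lowest difference of the list, -0.90, with samples at 6.86 and 6.82 in control and 6.0 and 5.88 with miR-29a-3p, and did not pass (adjusted p = 0.147 with the intensity trend in limma). SERPINH1, the collagen chaperone HSP47, measured 9.53 and 10.09 in control, 9.01 and 9.53 after the miR-29a-3p mimic and 10.34 and 10.25 after the miR-223-3p mimic. It was not called against control (-0.54, adjusted p = 0.352 with the trend).

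Between the mimics 10 of the 21 genes of collagen folding lay below with miR-29a-3p and 11 above, with a median of 0.015. The intensity trend called 3 of these genes lower with miR-29a-3p, where it called 0.916% of all genes lower, and none higher. The 3 called lower were SERPINH1 (-1.025, adjusted p = 0.011), COLGALT1 (-0.76, 0.00497) and P3H1 (-0.635, 0.0207). No call of the 3 held in every fit with 1 of the 4 samples left out, and no gene of the list was called higher in those fits. With miR-223-3p against control 14 of the 21 genes lay below and 7 above, with a median of -0.14. The trend called 1, the prolyl 3-hydroxylase P3H2, lower by 0.66 on the log2 scale, at an adjusted p of 0.0231, where it called 0.503% of all genes lower. Without any 1 of the 4 samples its adjusted p was 0.123 to 0.204.

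The general machinery of the secretory pathway was read in 2 lists. Of 20 measured ER chaperones and oxidoreductases, 13 were below and 7 above control with miR-29a-3p, with a median of -0.09. None passed in either limma fit. DNAJB11, a cochaperone of BiP, was lower at an unadjusted p under 0.05 (-0.535), as were 4.67% of all genes. DNAJB11 measured 12.3 and 12.29 in control, 11.73 and 11.79 after the miR-29a-3p mimic and 12.45 and 12.37 after the miR-223-3p mimic (log2). It was called lower than with miR-223-3p by the intensity trend (-0.65, adjusted p = 0.00871), a fit that called 0.916% of all genes lower. That call was lost when any 1 sample was left out. Among 26 genes of retrieval by KDEL receptors and of transport from ER to Golgi, 13 were below and 12 above control with miR-29a-3p and 1 equal to it, with differences from -0.35 for the coat subunit SEC23A to 0.44 for the receptor KDELR3. None passed in either fit or at an unadjusted p under 0.05. With miR-223-3p none of these 2 groups passed in either fit or at an unadjusted p under 0.05.

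**Figure D3:**
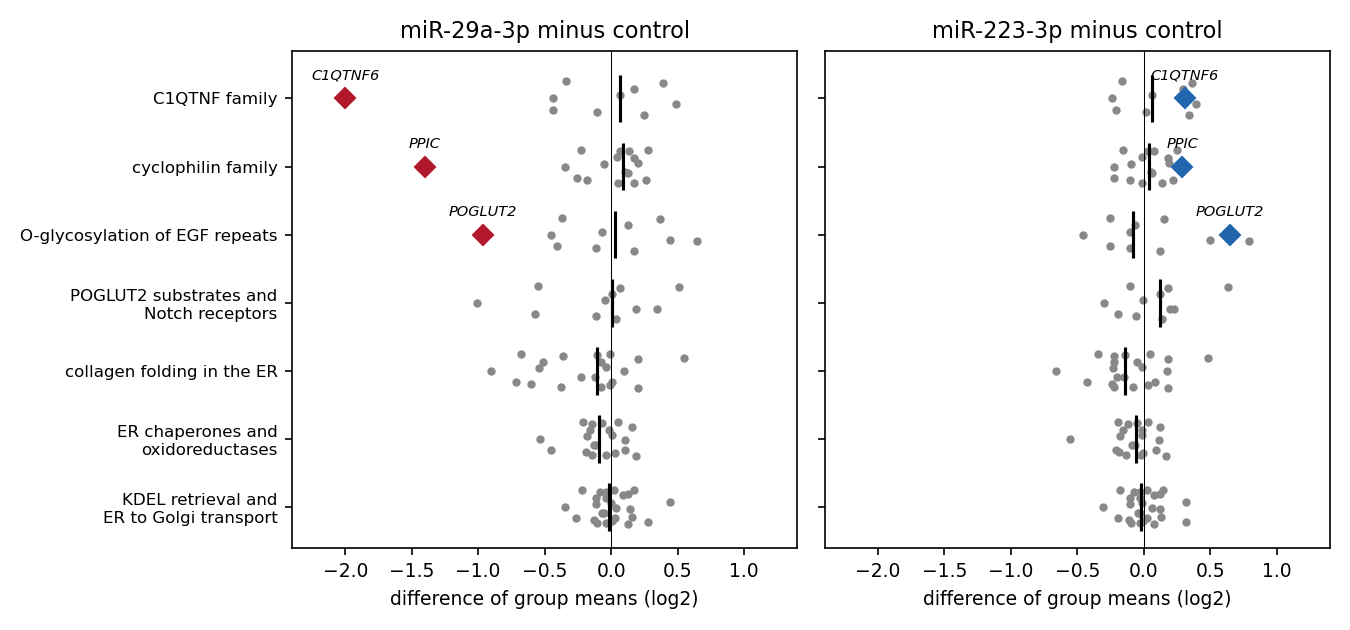
Difference of group means from control (log2, horizontal axis) with miR-29a-3p (left) and miR-223-3p (right) for the genes of 7 lists, with the list's other genes as grey points, their median as a black bar and C1QTNF6, PPIC and POGLUT2 as diamonds. On the left the diamonds, chosen for low values there, lie at -2.0, -1.40 and -0.965 and the medians between -0.105 and 0.0875. On the right the diamonds lie at 0.31, 0.29 and 0.65.

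The genes whose 6 values were most like those of each of the 3 were found by the root mean square distance between signals, after each gene was centred on its own mean. The measure is over the 6 samples of 3 groups and says nothing of shared control. Nearest to PPIC was SGK1, a kinase of ion transport and survival, at 0.0901 (log2), where the median gene was 0.776 away. SGK1 measured 11.79 and 11.77 in control, 10.53 and 10.21 after the miR-29a-3p mimic and 11.95 and 11.86 after the miR-223-3p mimic. Next came MYLK, the myosin light chain kinase, CHRAC1, a histone-fold protein, IGFBP3, an IGF binding protein that is secreted, and the chemokine CXCL16, at 0.129 to 0.201. With miR-29a-3p these 5 genes differed from control by -1.525 to -1.215.

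Nearest to C1QTNF6 were the glucose transporter SLC2A3 at 0.284, PPIC at 0.322, SLC2A14, the DNA glycosylase TDG and SGK1 at 0.349, where the median gene was 1.04 away. SLC2A3 and SLC2A14 are near-identical, and their probes may share signal. Nearest to POGLUT2 were SAMTOR, a sensor of S-adenosylmethionine, at 0.199, RMND5A, a ubiquitin ligase subunit, the kinases FRK and MAPK6, and INSIG1, which holds back cholesterol synthesis, at 0.246, where the median gene was 0.714 away. These 5 differed from control by -1.105 to -0.62 with miR-29a-3p and by 0.205 to 0.51 with miR-223-3p. PPIC ranked 2nd nearest to C1QTNF6 and 10th nearest to POGLUT2, and C1QTNF6 ranked 29th nearest to PPIC. POGLUT2 ranked 14th nearest to PPIC and 17th nearest to C1QTNF6, while C1QTNF6 ranked 354th nearest to POGLUT2. The ranks thus differed with the gene they were measured from. The 3 genes were chosen as low in the same samples, so near ranks among them follow in part from that choice. The 5 genes nearest to each were found by their likeness, so their values carry no test here.

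**Figure D4:**
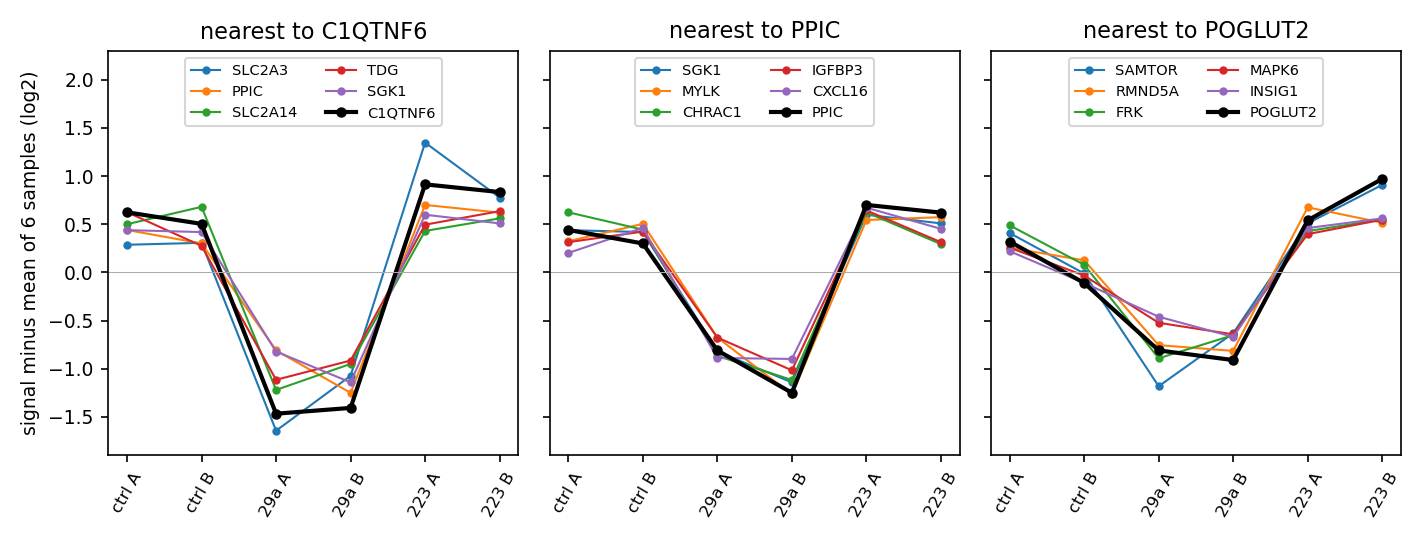
Signal minus the gene's mean over 6 samples (log2, vertical axis) in each sample, for C1QTNF6, PPIC and POGLUT2 (black) and the 5 genes nearest to each (coloured). The lines dip in both miR-29a-3p samples, and those around PPIC lie closest together, with distances of 0.0901 to 0.201.

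Across the whole series, array medians lay between 6.21 and 6.23 and samples of one group correlated at 0.9938 to 0.995 across genes, which are not independent replicates. With 2 arrays in a group, their number limits the precision. All 8 epithelial markers were measured, with control means from 3.22 for CLDN4 to 17.34 for KRT8 (log2). With miR-223-3p against control the intensity trend called 0.181% of all genes higher. EPCAM, an epithelial adhesion molecule, was among them (1.14, adjusted p = 0.00201), and so was the keratin KRT19 (0.82, 0.00586). Both lay on the same side of control as the 3 genes did with miR-223-3p. Of the 8 markers 7 lay above control and 1 below there, with a median of 0.1475. Those other than EPCAM and KRT19 differed by -0.025 for KRT18 to 0.33 for CLDN4. The constant prior called none of the 8 in any comparison. The EPCAM call held when each of the 4 control and miR-223-3p samples was left out in turn, and that of KRT19 was lost without sample A of control or of miR-223-3p, with adjusted p up to 0.178. With miR-29a-3p, 2 of the 8 lay below control and 6 above, with a median of 0.065. E-cadherin (CDH1), at -0.84, and KRT19, at 0.515, had an unadjusted p under 0.05, and neither passed limma. Over all genes 4.67% had such a p and were lower, and 4.19% were higher. Between the mimics the trend called CDH1 (-0.87, adjusted p = 0.036) and EPCAM (-0.99, 0.00204) lower with miR-29a-3p, where it called 0.916% of all genes lower. CDH1 no longer passed with sample A of miR-223-3p or sample B of miR-29a-3p left out (up to 0.39), and EPCAM no longer passed with sample A of miR-29a-3p left out (0.0549). The part of these markers in the results of the 3 genes was not tested. Of 6 measured lung lineage markers, NKX2-1, SFTPB, SFTPC and NAPSA were dim, with control means of 3.785 to 4.975, and FOXA2 and FOXA1 had means of 6.335 and 7.38. None of the 6 passed limma in either fit. FOXA1 differed by 0.65 with miR-223-3p at an unadjusted p under 0.05, which 7.59% of all genes had. Leukocyte markers (5 of 6 measured) had control means of 3.315 to 4.88, and fibroblast and endothelial markers (8 of 9) 3.3 to 7.61, the highest being COL1A2. The 13 showed no gene past limma in any of the 3 comparisons, in either fit. CD3E and LYZ, with control means of 4.545 and 3.855, were lower with miR-29a-3p at an unadjusted p under 0.05, as were 4.67% of all genes.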

How the data were processed

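Per the labels' protocols, biotin-labelled total RNA of each sample went on 1 array. The deposited log2 values were made with RMA (background correction, normalization between arrays and summary by probe set), per the submitters' processing notes, which also name hg38; its version is not stated there. RMA makes arrays alike, so a change in total messenger RNA cannot be seen. A platform annotation named 1 gene for 17709 of 21448 probe sets and 3739 are unnamed here. All 17709 matched RefSeq. The probe set with the highest mean was kept per gene (17687 genes). Samples were grouped by title. limma 3.58.1 in R 4.3.3 (lmFit, eBayes with a constant prior) fitted all 6 samples, leaving 3 residual degrees of freedom, and p-values were adjusted by Benjamini-Hochberg over all genes, with a threshold of 0.05. The intensity trend and other settings were alternatives. The procedure was tested on simulated data. The 3 genes and the lists were chosen with earlier results of these data known. Named genes are the 3, the 5 nearest to each, the nearest measured neighbours, fixed relatives, and in each list up to 4 genes by p in the miR-29a-3p contrast and 2 in that of miR-223-3p, not all of which are printed. PLOD2 and single markers of cell types were named after their values were seen. The letters A and B were not taken to pair samples, since deviations correlated at 0.00393 to 0.134 between groups.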

Additional observations from a re-analysis of the deposited data

How the results depend on the processing

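The log2 differences of C1QTNF6, PPIC and POGLUT2 kept their direction under every alternative run, and those with a test, miR-223-3p against control, kept their side of the threshold. Leaving out 1 sample of miR-29a-3p moved PPIC beyond its residual SD, to -1.62 and -1.18 against control and to -1.91 and -1.47 against miR-223-3p, in either prior. The counts of genes called moved most. For miR-29a-3p against control (2), miR-223-3p against control (0) and between the mimics (39) they were 182, 121 and 344 with the intensity trend and 72, 25 and 224 without dim genes. With the replicate block, the letter as a block, those of miR-29a-3p against control and between the mimics were 0 and 0, so each call of the constant prior was lost. Fitting only the groups compared gave 1 between the mimics. Without any 1 sample both of these were 0 too. The intensity trend with 1 sample left out, chosen after seeing the data, gave 51, 81, 55 and 45 for miR-29a-3p against control (without control A, control B, mimic A, mimic B), 42, 49, 57 and 55 for miR-223-3p against control in like order, and 217, 150, 141 and 162 between the mimics (without miR-223-3p A and B, then miR-29a-3p A and B). The cause was not tested. Where a group was left with 1 sample, it was assumed to vary like the others. Small differences changed sign. PPIB between the mimics (-0.005) was 0.005 with arrays centred on their medians and -0.115 to 0.105 with 1 sample left out. With 1 sample left out NOTCH1 ran from -0.42 to 0.2, NOTCH3 from -0.115 to 0.185, TEX30 from -0.44 to 0.04 and C1QTNF1 from -0.72 to 0.04 with miR-29a-3p, and POGLUT3 from -0.055 to 0.295 with miR-223-3p. None of these passed in any of these fits.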
